A study of Saccharomyces cerevisiae with 49 samples.

Results

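The enzymes that charge tRNAs in the yeast cytosol and the factors that start, extend and end protein chains were followed through 1 metabolic cycle of Saccharomyces cerevisiae. The set held 52 genes given by symbol: 18 aminoacyl-tRNA synthetases, 26 initiation factors and 8 elongation and termination factors. Of these, 49 had a probe set of their own symbol on the array, out of 5449 S. cerevisiae genes measured. TIF1, TEF1 and EFT1 had none. Their near-identical paralogues TIF2, TEF2 and EFT2 were each measured by a probe set that the array maker marks as shared, so each pair of copies cannot be told apart. All 49 passed the filter on dim probe sets.

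Every sample came from CEN.PK113-7D, a haploid strain of mating type a carrying no stated mutation, grown aerobically in a fermentor at constant pH and temperature on glucose medium with yeast extract. Fresh medium was fed at a steady rate, and the oscillation had a period of about 4 h. A sample was taken every 5 min, and its place in the cycle was given as a phase angle. The 47 samples of the first pass through the cycle fell into 6 windows of 60 degrees, with 8 samples in each window and 7 in phase 300-360, and 2 more samples repeated phase 240-300 on the second pass. They are successive samples of an oscillating culture and not separate cultures. Every p-value therefore rests on the spread of these samples around the fit, not on a spread between cultures. That spread takes in the rise and fall of the signal within a window. RNA was pooled over all cells of a sample, so more cells with a transcript and more transcript per cell cannot be told apart. Markers of mating type a had median signals of 2570 to 8821. Those of mating type alpha had median signals of 86 for MF(ALPHA)2, 540 for MF(ALPHA)1, 666 for STE3 and 1277 for SAG1. Signals of different probe sets cannot be compared, so these values do not by themselves settle the mating type.

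Aminoacyl-tRNA synthetases join each amino acid to its tRNA. Initiation factors then load the initiator tRNA and the ribosome on the mRNA. In this step eIF2 carries the initiator tRNA, eIF2B recharges eIF2 with GTP, eIF3 holds the preinitiation complex together, and the eIF4 factors bind the cap and unwind the mRNA. During elongation eEF1A brings charged tRNAs to the ribosome, eEF2 moves it along the message, and eEF3 is an additional factor that fungi require. Release factors end the chain at a stop codon. In continuous culture budding yeast is known to express its growth genes in a burst once in each respiratory cycle.

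The translation machinery rose in a single pulse in phase 0-60. Of the 49 members, 47 were higher there than in the mean of the other 5 windows (limma with Benjamini-Hochberg adjustment over all 5470 tested probe sets), against 39.9% of all tested probe sets, and 0 were lower, against 43% of all. The 2 that did not pass were EFT2 and TEF2. The count took in 18 of 18 synthetases, 25 of 25 initiation factors and 4 of 6 elongation and termination factors. The median fold was 1.79 for synthetases, 1.81 for initiation factors and 1.78 for elongation and termination factors, beside 0.981 for all tested probe sets. Differences among these 3 medians were not tested. At least a 2-fold level was reached by 17 members, beside 641 of all 5470 tested probe sets. Of the 17, 6 were synthetases, 9 initiation factors and 2 elongation or termination factors. In 17 members all 8 samples of the window lay above every sample outside it, and in 41 at least 6 did. The share of all tested probe sets that did so was not counted.

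The phase angle was also fitted as a wave. A cosine over all 49 samples called 47 members as cycling, against 88.4% of all tested probe sets, a share so high that the count says little about these genes. GUS1 and TEF2 were the 2 not called. The R2 of the cosine ran from 0.0696 to 0.582 over the members, with a median of 0.303 beside 0.346 over all tested probe sets, and in 48 members it was under 0.5, so a cosine describes the pulse poorly.

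**Figure D1:**
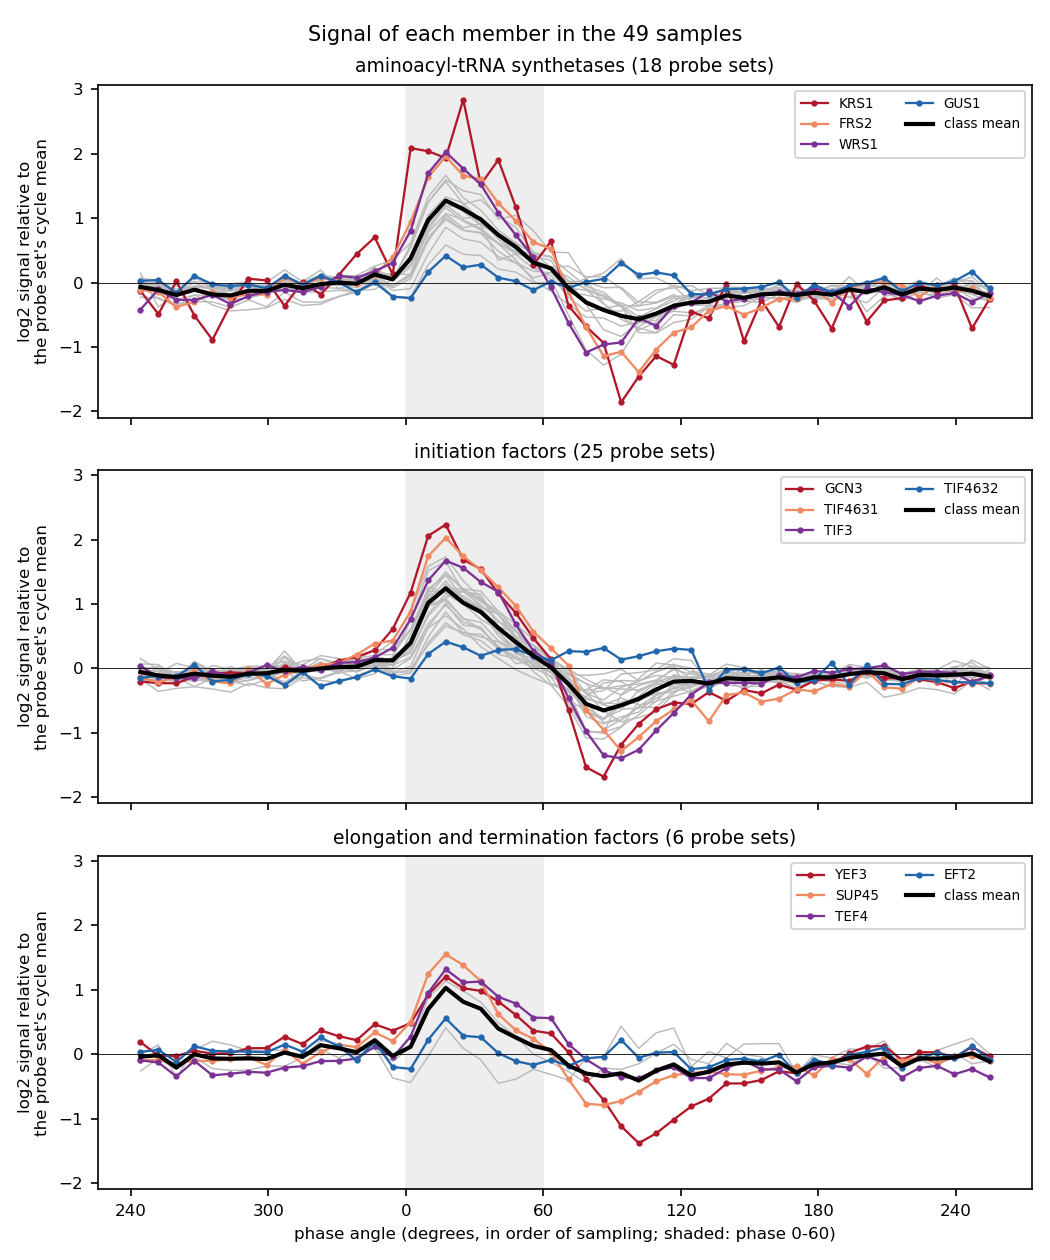
Log2 signal of each member relative to its own mean over the first pass (vertical axis), against phase angle in degrees in order of sampling (horizontal axis), for 18 synthetases, 25 initiation factors and 6 elongation and termination factors. Grey lines are members, the black line is the class mean, coloured lines are the 3 members with the widest range and the 1 with the narrowest, and the shading marks phase 0-60, where the 3 class means peak before they dip in phase 60-120.

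Among the synthetases, KRS1, which charges lysine tRNA, had the widest range. Its signal in the 8 samples of phase 0-60 ran from 804 through a median of 2515 to 4760, while in phase 240-300 it was 559 ± 123 (SD, n = 8). In 7 of the 8 pulse samples KRS1 exceeded every other sample, and the sample at 56 degrees was the low one. The window stood 4.18-fold above the others (log2 difference 2.06, SE 0.19, adjusted p = 6.84e-13). Its highest running mean of 3 samples was 13.6 times its lowest. KRS1 was also the dimmest member, with a median signal of 584, and its single samples scattered more, relative to their mean, than those of the other synthetases described here.

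FRS2 and FRS1 encode the alpha and beta subunits of the enzyme that charges phenylalanine tRNA. FRS2 ran from 5197 through 9089 to 13100 in the pulse and was 2914 ± 175 (SD, n = 8) in phase 240-300. FRS1 ran from 6296 through 9963 to 13519 and ran from 3359 to 4001 in phase 240-300. For both subunits all 8 pulse samples lay above every other sample. FRS2 rose 3.01-fold (log2 1.59, SE 0.13, adjusted p = 9.44e-15) and FRS1 rose 2.36-fold (log2 1.24, SE 0.08, adjusted p = 6.62e-17). The 2 subunits parted after the pulse: FRS2 fell to 0.550 of the other windows in phase 60-120, and FRS1 to 0.877 (adjusted p = 0.0401). The call of FRS1 rested on the pulse in the comparison, since its mean of 4144 in phase 60-120 lay above its means in the 4 other windows outside the pulse, and it was lost as deposited (adjusted p = 0.180). The difference between the subunits was not tested.

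WRS1, the tryptophan enzyme, ran from 2568 through 4873 to 7957 in phase 0-60, again with no overlap with any other sample, and was 1652 ± 116 (SD, n = 8) in phase 240-300. It rose 2.84-fold (log2 1.51, SE 0.11, adjusted p = 8.43e-16). HTS1 for histidine rose 2.57-fold, MES1 for methionine 2.24-fold, CDC60 for leucine 1.98-fold and DED81 for asparagine 1.91-fold.

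The smallest range belonged to GUS1, the glutamate enzyme. Its 8 pulse samples ran from 9351 through 12028 to 14769 and overlapped those of phase 240-300, which ran from 9912 to 11897. The fold was 1.09 (log2 0.13, SE 0.05, adjusted p = 0.0197), and with the arrays left as deposited it no longer passed (adjusted p = 0.0767). DPS1 for aspartate rose 1.22-fold and THS1 for threonine 1.41-fold. The other synthetases, GRS1, SES1, VAS1, GLN4, ILS1, ALA1 and TYS1, rose between 1.56-fold for GRS1 and 1.80-fold for TYS1. ALA1, GRS1, HTS1 and VAS1 each encode both the cytosolic and the mitochondrial enzyme, and all 4 rose, by 1.77-fold, 1.56-fold, 2.57-fold and 1.72-fold.

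In yeast Mes1 and Gus1 are held together by the tRNA-binding protein Arc1. Their transcripts had unequal pulses, at 2.24-fold for MES1, 1.26-fold for ARC1 and 1.09-fold for GUS1. Whether these differ from each other was not tested.

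**Figure D2:**
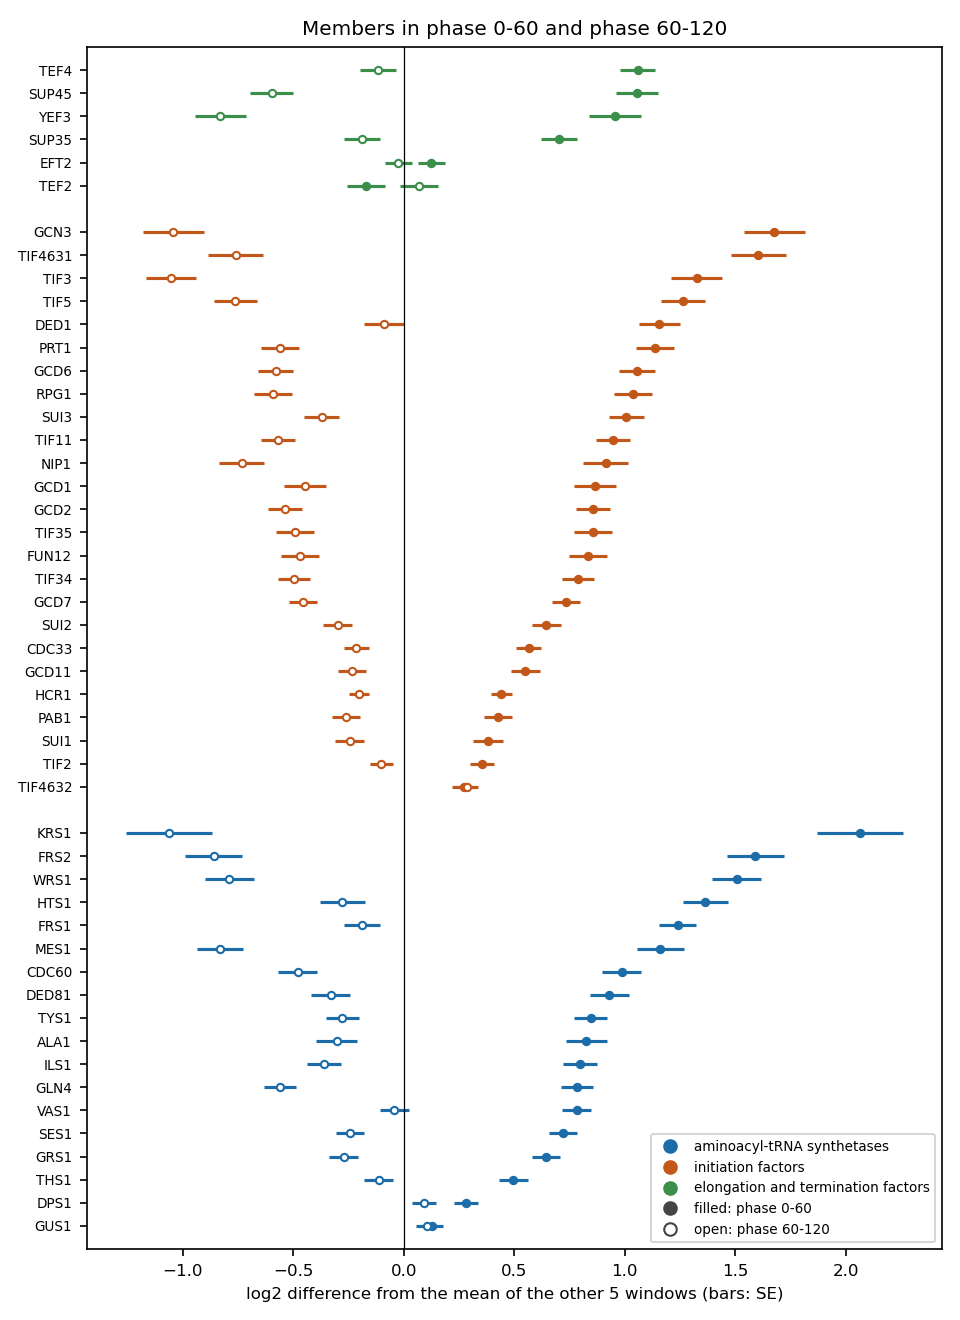
Log2 difference of each member in phase 0-60 (filled) and phase 60-120 (open) from the mean of the other 5 windows (horizontal axis, bars are SE), with members in rows ordered within each class. All filled points but that of TEF2 lie to the right of 0, and most open points lie to the left.

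The subunits of eIF2, the carrier of the initiator tRNA, rose 2.01-fold for SUI3, 1.56-fold for SUI2 and 1.46-fold for GCD11. All 5 subunits of eIF2B, the exchange factor of eIF2, also rose. They ranged from 1.66-fold for GCD7 through 1.81-fold for GCD2, 1.82-fold for GCD1 and 2.08-fold for GCD6 to 3.20-fold for GCN3. GCN3 is the regulatory alpha subunit, which yeast can live without. Its pulse samples ran from 2120 through 3954 to 7192, and its level in phase 240-300 was 1391 ± 68.8 (SD, n = 8). In 7 of the 8 samples it exceeded every other sample (log2 1.68, SE 0.14, adjusted p = 1.51e-14), and its highest running mean was 11.02 times its lowest, the widest range among the 25 initiation factors.

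Of the genes for eIF3 subunits, 6 of 6 rose: PRT1 2.20-fold, RPG1 2.05-fold, NIP1 1.89-fold, TIF35 1.81-fold, TIF34 1.73-fold and HCR1 1.36-fold. HCR1, which encodes the loosely bound subunit, had the smallest of these folds.

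The factors that act on the mRNA itself moved by very different amounts. TIF3, which encodes eIF4B, a cofactor of the helicase eIF4A, ran from 4951 through 9896 to 13125 in phase 0-60 and was 3912 ± 229 (SD, n = 8) in phase 240-300. In 7 of the 8 samples TIF3 lay above every other sample, and the fold was 2.51 (log2 1.33, SE 0.11, adjusted p = 5.66e-14). TIF2, the probe set for eIF4A, rose 1.28-fold, CDC33 for the cap-binding eIF4E 1.48-fold and PAB1 for the poly(A)-binding protein 1.34-fold. DED1, a helicase used in scanning, rose 2.23-fold.

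The 2 genes of eIF4G, the scaffold that joins the cap to the poly(A) tail, had different courses. TIF4631 ran from 4910 through 8708 to 13502 in the pulse, all 8 samples above every other, and was 2978 ± 185 (SD, n = 8) in phase 240-300. TIF4632 ran from 1507 through 2005 to 2240 in the pulse and was 1555 ± 87.7 (SD, n = 8) in phase 240-300, with only 2 pulse samples above every other. TIF4631 rose 3.04-fold (log2 1.60, SE 0.12, adjusted p = 3.13e-15) and TIF4632 rose 1.21-fold (log2 0.27, SE 0.05, adjusted p = 8.66e-06). In the next window they were called in opposite directions. In phase 60-120 TIF4631 fell to 0.590 of the other windows (adjusted p = 1.07e-06) and TIF4632 rose 1.22-fold (adjusted p = 8.53e-06), with 8 samples between 1836 and 2094.

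Of the small factors that set the start codon, TIF5 for eIF5 rose 2.40-fold, TIF11 for eIF1A 1.93-fold and SUI1 for eIF1 1.30-fold. FUN12, which encodes eIF5B and joins the subunits of the ribosome, rose 1.78-fold.

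The elongation factors divided into those that pulsed and those that did not pass the test. YEF3, the gene of eEF3, ran from 16760 through 23825 to 29996 in phase 0-60, with 7 of the 8 samples above every other, and was 13480 ± 701 (SD, n = 8) in phase 240-300. It rose 1.94-fold (log2 0.95, SE 0.12, adjusted p = 5.45e-10). TEF4, a gene of the gamma subunit of the exchange factor eEF1B, ran from 10100 through 15846 to 20844 and was 7123 ± 526 (SD, n = 8) in phase 240-300. It rose 2.08-fold (log2 1.06, SE 0.08, adjusted p = 1.70e-15).

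The release factors rose too. SUP45, which reads the stop codon, ran from 6010 through 9516 to 14945 in the pulse against 4742 ± 123 (SD, n = 8) in phase 240-300. SUP45 rose 2.08-fold (log2 1.06, SE 0.10, adjusted p = 2.24e-13), and its GTPase partner SUP35 rose 1.63-fold.

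EFT2, the eEF2 probe set, ran from 15037 through 19191 to 25895 in the pulse and was 18050 ± 843 (SD, n = 8) in phase 240-300, so that the groups overlapped. Its fold was 1.09 (log2 0.12, SE 0.06, adjusted p = 0.051). TEF2, the eEF1A probe set, ran from 11654 through 14275 to 21184 and was 16460 ± 1800 (SD, n = 8) in phase 240-300. Its fold was 0.889 (log2 -0.17, SE 0.09, adjusted p = 0.0658). TEF2 was called low in phase 0-60 with arrays as deposited (log2 -0.15, adjusted p = 0.0474) and after quantile normalization (log2 -0.24, adjusted p = 1.21e-06). No sample of phase 0-60 was its highest, and its running mean was lowest at 48 degrees. The arrays at 40, 48 and 56 degrees were multiplied by 0.901, 0.733 and 0.802 to reach the common median, and 0.733 was the lowest factor of all arrays. The part of this scaling in the position of the low was not tested.

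Brighter members had narrower ranges. The 10 members with a median signal of 8000 or more had a median highest-to-lowest ratio of 1.80, from 1.38 to 4.97, and the 39 dimmer members a median of 3.49. Spearman's rho between the ratio and the median signal was -0.64 over the 49 members and -0.12 over all 5470 probe sets, given as a description over genes that share the same arrays. The highest deposited signal of any probe set on any array was 27583. Whether bright probe sets neared the top of the scale was not tested. YEF3, at a median of 13280 and a ratio of 4.97, was the bright member with a wide range.

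**Figure D3:**
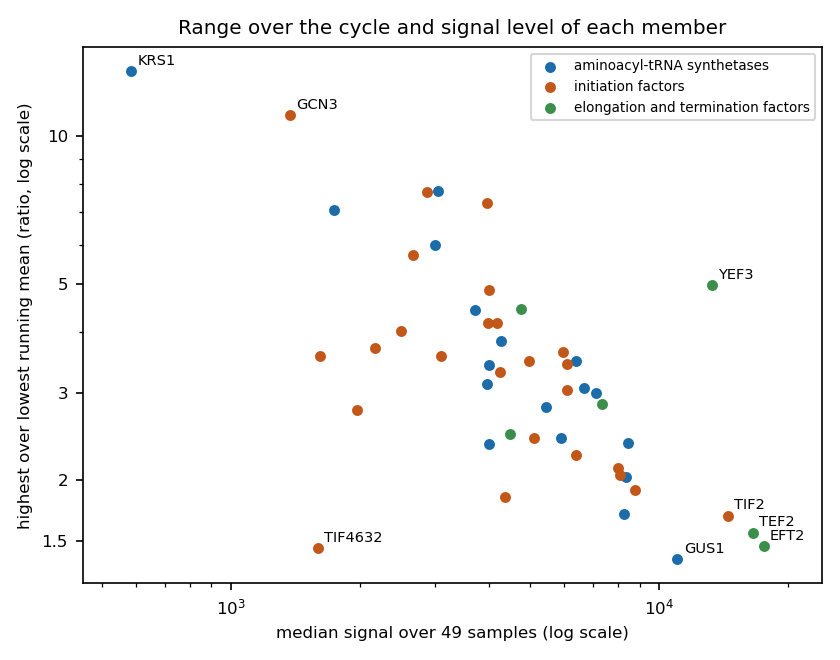
Ratio of the highest to the lowest running mean of each member (vertical axis, log scale) against its median signal over 49 samples (horizontal axis, log scale), coloured by class. KRS1 at 584 has the widest range, GUS1, TIF2, TEF2 and EFT2 lie low at the bright end, and YEF3 and TIF4632 stand apart from the slope of the others.

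The members peaked within 2 neighbouring samples of each other. The running mean was highest at 17 degrees in 28 members and at 25 degrees in 20, and TEF2, which was highest in phase 60-120, was the exception. Of the members, 98.0% peaked between 10 and 30 degrees, against 29.1% of all tested probe sets. By the running mean, initiation factors peaked at 17 degrees in 19 of 25 cases and synthetases at 25 degrees in 11 of 18. In single samples 43 of the 49 members were highest at 17 degrees, and the median peak of every class was at 17 degrees. The offset between initiation factors and synthetases was therefore not seen in the medians of single samples. How many of all tested probe sets were highest at 17 degrees in single samples was not counted. The peak position also leaned on how the arrays were scaled. With values as deposited the median peak was at 40 degrees for synthetases and for elongation and termination factors, and at 17 degrees for initiation factors. Within the pulse the array medians fell to 1456 at 25 degrees and rose to 2595 at 48 degrees, the lowest and the highest of all 49 arrays.

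The middle of the climb, on the log2 scale, from the mean of phase 240-300 to the peak was reached at a median of 2.81 degrees, at 3.89 for synthetases, 2.23 for initiation factors and 3.80 for elongation and termination factors. These medians lie closer than the sampling step of 7.65 to 7.87 degrees. In 10 members this point came before phase 0, as in KRS1, GCN3 and TIF5, and in 4 it came after 10 degrees, in GUS1, DPS1, EFT2 and TEF2. The same level was passed on the way down at a median of 45.9 degrees, and 47 of 49 members passed it between 30 and 65 degrees. The share of all tested probe sets in that span was not counted. Taken from the middle between the highest and the lowest running mean, as first planned, the fall came at 59.5 degrees for synthetases, 55.3 for initiation factors and 57.4 for elongation and termination factors. By the level of phase 240-300, HTS1 held longest among the synthetases, to 62.86 degrees, and TEF4 passed the mark at 61.51 degrees. TIF4632 did so at 123.9 degrees.

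**Figure D4:**
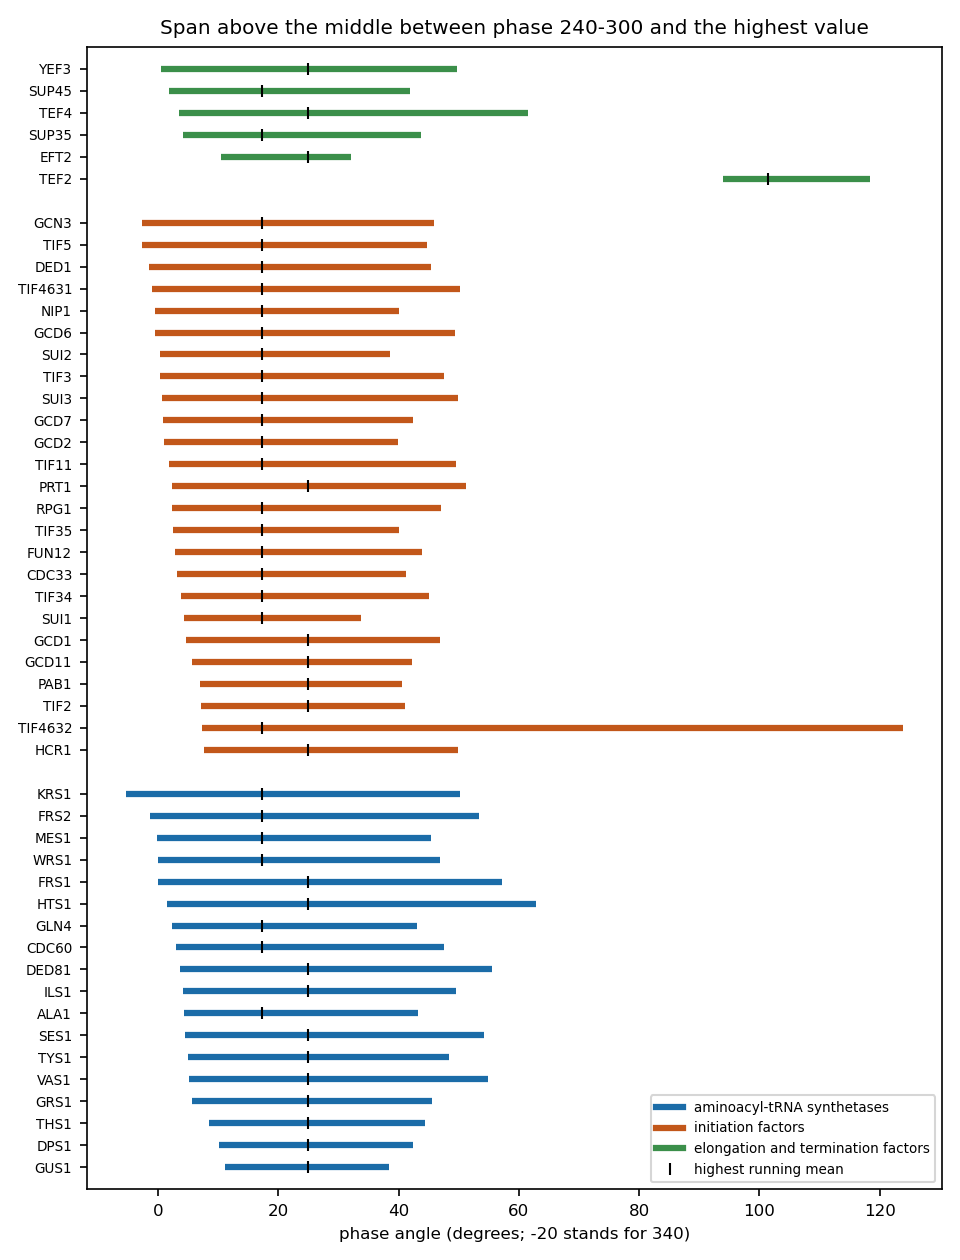
Phase angle in degrees (horizontal axis) over which each member (rows, coloured by class) stayed above the middle, on the log2 scale, between its mean in phase 240-300 and its highest running mean, which the black tick marks. The bars start close to phase 0 and end between 30 and 65 degrees in 47 of 49 members, and those of TEF2 and TIF4632 end later.

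The late part of the pulse, phase 30-60, was compared with the early part, phase 0-30, with 4 samples on each side. In this comparison 25 members were lower late, against 28.8% of all tested probe sets, and 0 were higher, against 34.1%. The 25 held 5 of 18 synthetases, 18 of 25 initiation factors and 2 of 6 elongation and termination factors. The counts of synthetases and of elongation and termination factors lay near the share of all tested probe sets, and that of initiation factors lay above it. KRS1 fell by 1.01 on the log2 scale (SE 0.28, adjusted p = 0.00187), GCN3 by 0.78 (SE 0.23, adjusted p = 0.00348) and TIF5 by 0.67 (SE 0.15, adjusted p = 0.000199). This comparison turned on the scaling and on single samples. With arrays as deposited 0 members were lower and 5 (TIF4632, HCR1, GUS1, DPS1 and VAS1) were higher. Without the sample at 2 degrees, taken before the peak, 48 were lower. Without the sample at 33 degrees the count was 38, without that at 25 degrees it was 16, and without that at 17 or at 56 degrees it was 14. With only the 8 pulse samples in the fit it was 0.

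The window after the pulse was low for most members. In phase 60-120, 39 members were lower than the mean of the other 5 windows, against 30.7% of all tested probe sets, and 1 (TIF4632) was higher, against 38%. The 39 were 14 synthetases, 22 initiation factors and 3 elongation or termination factors. That mean takes in the pulse. Against the 4 windows other than phase 0-60 and 60-120, 28 members were lower, beside 28.8% of all tested probe sets, and 3 were higher, beside 30.3%. The 28 held 7 synthetases, 19 initiation factors and 2 elongation or termination factors, so the count of synthetases dropped from 14 to 7 once the pulse was left out. In the even-numbered samples alone it was 6. The depth of the dip is described by the lowest running mean over the mean of phase 240-300, which lies under 1 in any probe set that varies. Its median was 0.731 over the members, beside 0.673 over all tested probe sets. The median was 0.670 for initiation factors, 0.752 for synthetases and 0.8105 for elongation and termination factors. The lowest running mean is taken anywhere in the first pass, so the medians of members and of all need not describe the same phases. In phase 60-120 itself, with the pulse among the other windows, the median fold was 0.7785 for the members and 1.049 for all. The lowest running mean fell in phase 60-120 in 40 of 49 members. For all tested probe sets the share lowest in that window was not counted, so this count is a description of the members only.

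Among the members the deepest dips were as follows. GCN3 reached 0.398 of its phase 240-300 level, YEF3 0.408, TIF3 0.417, KRS1 0.433 and MES1 0.487. In the 8 samples of phase 60-120 GCN3 ran from 477 through 908 to 1687, and YEF3 from 4991 through 7187 to 16266, so that the window held both the end of the fall and the low point. Of the members that rose at least 2-fold, DED1, FRS1 and TEF4 reached no lower than 0.940, 0.939 and 0.938 of their earlier level. In phase 60-120 DED1 did not pass the test (fold 0.939, adjusted p = 0.377). TEF4 likewise did not pass there (fold 0.922, adjusted p = 0.191).

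The later windows were compared in the same way, with the pulse among the other windows. In phase 120-180, 34 members were lower, against 22.5% of all tested probe sets, and 0 were higher, against 20.5%. The median fold of the 49 members there was 0.858. With arrays as deposited the 34 became 7, beside 10.7% of all. In phase 180-240, 4 members were lower (VAS1, TIF4632, DED1 and TEF4), against 6.78%, and 0 higher, against 7.92%. In phase 240-300, 9 were lower, against 14.4%, and 0 higher, against 14.6%. As deposited these counts of lower members were 1 in phase 180-240, beside 1.13% of all, and 2 in phase 240-300, beside 5.78%. In these 2 windows the counts of lower members lay near the share of all tested probe sets. In phase 300-360 YEF3 was higher (1.28-fold, adjusted p = 0.0276), against 12.5% of all, and TIF4632 was lower (0.883-fold, adjusted p = 0.0142), against 13.6%. Neither call held as deposited (adjusted p = 0.0971 for YEF3 and 0.475 for TIF4632), and after quantile normalization 3 members were higher. The 2 samples of the second pass lay close to the first 2 samples of the first pass. No member differed by 1.5-fold, and the ratios ran from 0.881 for TEF4 to 1.11 for PRT1. Over all tested probe sets 0.914% were at least 1.5-fold higher and 0.274% at least 1.5-fold lower, with no test on 2 samples a side.

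Some factors have a paralogue outside the 52 genes, and several of those went another way. These pairs were picked after their values were seen. HEF3 is a second gene of eEF3. Its 8 pulse samples ran from 331 through 514 to 5700, against 9120 ± 234 (SD, n = 8) in phase 240-300, a fold of 0.150 (log2 -2.74, SE 0.30, adjusted p = 5.30e-11), while YEF3 rose 1.94-fold. DBP1, a paralogue of DED1, ran from 282 through 837 to 1278 in the pulse against 3358 ± 164 (SD, n = 8) in phase 240-300 (log2 -2.06, SE 0.15, adjusted p = 2.75e-16), while DED1 rose 2.23-fold. Both opposite calls held with arrays as deposited and after quantile normalization.

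The 2 genes of eIF5A, the hypusine-bearing factor that helps peptide bond formation, also parted. ANB1, known as the gene used when oxygen is scarce, ran from 297 through 1221 to 2784 in the pulse against 278 ± 51.9 (SD, n = 8) in phase 240-300 (log2 2.08, SE 0.21, adjusted p = 3.21e-12). HYP2, known as the gene used in air, did not pass the test (log2 -0.06, SE 0.07, adjusted p = 0.445), but was called low after quantile normalization (log2 -0.12, adjusted p = 5.34e-06). CAM1, the paralogue of TEF4, ran from 5945 through 8371 to 9698 in the pulse and did not pass either (log2 0.07, SE 0.05, adjusted p = 0.222). It was higher in phase 60-120 (log2 0.21, SE 0.05, adjusted p = 0.000433). Differences between the genes of a pair were not tested as such.

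**Figure D5:**
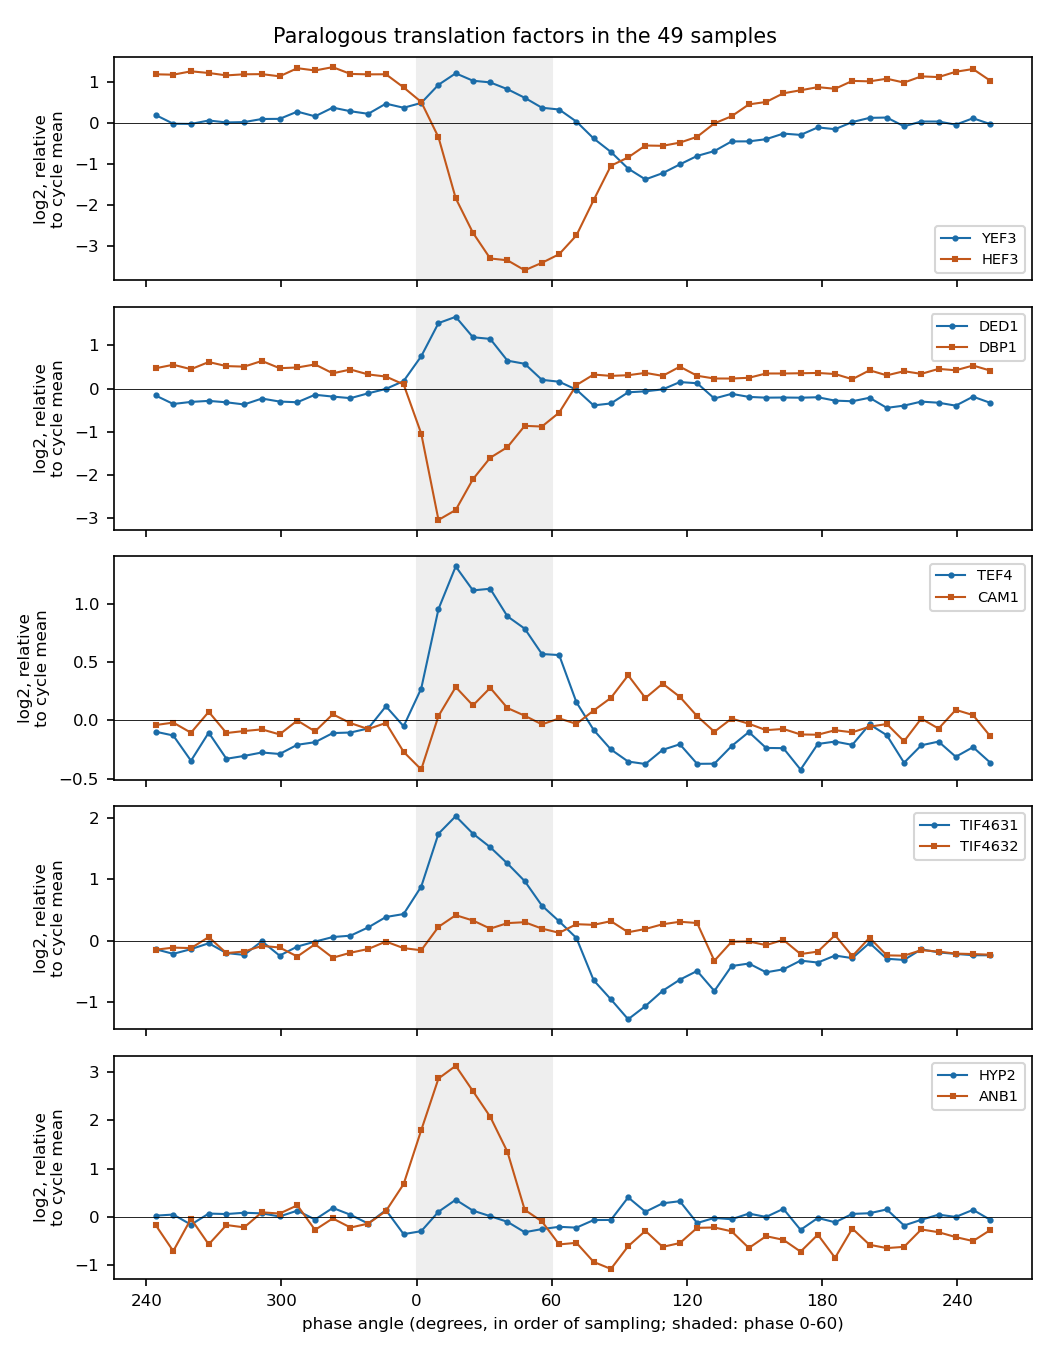
Log2 signal of both genes of 5 paralogous pairs relative to each gene's own mean over the first pass (vertical axis), against phase angle in degrees in order of sampling (horizontal axis), with phase 0-60 shaded. HEF3 and DBP1 drop where YEF3 and DED1 peak, ANB1 peaks where HYP2 stays near 0, and TEF4 and TIF4631 peak well above CAM1 and TIF4632.

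Related lists are given side by side with the members, each over its measured genes. The other cytosolic synthetase genes, listed with ARC1 for the partner of Mes1 and Gus1, rose in 3 of 3 cases. YHR020W for proline rose 2.75-fold, YDR341C for arginine 1.73-fold and ARC1 1.26-fold. The mitochondrial synthetases ran later. Of 13, 0 were higher and 10 lower in phase 0-60, with 7 lower as deposited and 9 after quantile normalization, and 13 of 13 were higher in phase 60-120 under each of these scalings, with a median of 2.08-fold. MSF1, the mitochondrial phenylalanine enzyme, was 3.28-fold and MST1, the threonine enzyme, 2.65-fold up in phase 60-120. MSF1 ran from 146.5 through 487 to 1806 in the pulse. In phase 60-120 it ran from 993 through 2340 to 3126.

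Of 21 other cytosolic translation factors, 16 were higher and 3 (HEF3, DBP1 and EAP1) lower in phase 0-60. LIA1, which encodes the hydroxylase that completes hypusine on eIF5A, rose 5.00-fold. EAP1, an inhibitor that competes with eIF4G for eIF4E, fell to 0.745 of the other windows, while CAF20, which competes in the same way, rose (log2 0.92, SE 0.07, adjusted p = 7.80e-15). In the general amino acid control list, in which Gcn2 phosphorylates eIF2 and Gcn4 is the activator translated as a result, 4 of 6 were higher and 1 lower. GIR2 rose 2.23-fold and GCN20 2.16-fold, and GCN2 fell to 0.731. GCN4 did not pass (fold 0.984, adjusted p = 0.752), with a median of 16665 in phase 0-60 and 16836 in phase 240-300, but was called low after quantile normalization (log2 -0.10, adjusted p = 1.96e-05). Its transcript level says nothing of its translation.

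Chaperones that meet the nascent chain were higher in 6 of 7 cases, led by ZUO1 at 2.03-fold, and BTT1, a minor gene of the nascent chain-associated complex, fell to 0.483. In RNA polymerase III, which makes the tRNAs, and its factors, 15 of 21 were higher and 5 lower. RPC40 and RPC19, whose products also serve RNA polymerase I, rose 3.45-fold and 2.88-fold. Ribosome biogenesis genes rose in 89 of 90 cases (median 3.76-fold). The helicase genes DBP2 and DBP3, which had the largest fitted waves of that list, rose 14.7-fold and 5.15-fold. Cytosolic ribosomal protein genes rose in 119 of 127 cases (median 1.40-fold). RPL9A at 2.89-fold and RPS26B at 2.80-fold had the largest fitted waves. The median of the 49 members, 1.81-fold, lay between those of the last 2 lists.

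The 49 arrays had median signals of 1456 to 2595 over the tested probe sets before they were set to a common median of 1902, so a change in the total amount of mRNA is not seen in these values. Under each of 3 scalings every member kept its direction in phase 0-60 and in phase 60-120. Control probe sets at the 3' and 5' ends of 4 genes track RNA integrity and labelling. For TDH1 the 3' signal over the 5' signal was, in log2, 0.316 ± 0.166 (SD, n = 8) in phase 0-60 and 0.066 ± 0.071 (SD, n = 41) on the other arrays. For ACT1 it was 0.327 ± 0.130 and 0.227 ± 0.089, for SPT15 1.098 ± 0.128 and 0.993 ± 0.085, and for RIP1 0.275 ± 0.123 and 0.218 ± 0.092 (SD, n = 8 and 41 in each). RIP1 was highest in phase 300-360, at 0.311 ± 0.084 (SD, n = 7). The part of RNA quality in the pulse of the members was not tested.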

How the data were processed

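Total RNA was labelled by oligo(dT)-primed amplification and hybridised to Affymetrix Yeast Genome 2.0 arrays, per the labels' protocols. The authors deposited 1 linear signal intensity per probe set and array, computed in GCOS (per the submitters' processing notes), whose version is not given in the sources used here. Files name no genome build, so no coordinates are given. Probe sets were named through the platform annotation (10928 probe sets, of which 5498 belong to 1 S. cerevisiae gene, with 12 symbols updated), and 1746 of another species were left out. A filter at the 75th percentile of the probe sets of the other species (median signal above 11.2) removed 28 and left 5470 probe sets of 5428 genes. Arrays were scaled to a common median, values under 1 set to 1 and log2 taken. The brightest probe set stood for a gene. limma 3.58.1 (R 4.3.3) fitted each probe set, with Benjamini-Hochberg adjustment at 0.05 over all tested probe sets. The fits were a cosine and sine over 49 samples, each of 6 windows against the other 5 over 47 samples, and 12 windows of 30 degrees. Running means covered 3 samples. The step was tested on simulated data. Python 3.11.15 with pandas 2.3.3 was used for the descriptions.

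Members and lists were chosen with earlier results of these data known. Values are given, per class, for the 3 members with the widest and the 1 with the narrowest range, for members not called as cycling and for paralogues both measured, and in other lists for the 2 called genes with the largest fitted wave. Alternatives concerned the scaling, filter, offset, array order, drift, samples and curve. The middle of the rise and of the fall, from the level of phase 240-300, was added after seeing the data, since some members dip far below it. The number of arrays limits the precision.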

Additional observations from a re-analysis of the deposited data

Results flagged for a closer look

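In 8 of 96 groups tested, the highest or lowest sample lay apart from the others of its window, as measured by its gap to the nearest other sample divided by the whole range of the window. Chance flags about 1 in 20 groups of independent, normally distributed values. Samples of a window are successive and the groups share arrays, so that rate need not hold here. The sample at 259.84 degrees was the low one in phase 240-300 for TEF2 at 12442 (0.627), for EFT2 at 16195 (0.615) and for the mean of the elongation and termination factors at log2 -0.207 relative to the cycle mean (0.637). That mean takes in TEF2 and EFT2, so the flags are not separate. This array had the highest median signal of its window, 2324, and the lowest scale factor of the window, 0.819. The part of the scaling in these flags was not tested. FRS2 was high at 354.23 degrees in phase 300-360, at 4416 (0.645), in the last sample before phase 0. TIF4631 was low in the second sample of phase 120-180, at 1871 (0.616). TIF4632 was low at 2 degrees, in the first sample of phase 0-60, at 1507 (0.617), and high at 267.71 degrees in phase 240-300, at 1748 (0.549). SUP45 was low in the third sample of phase 180-240, at 4121 (0.606).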

How the results depend on the processing

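Counts of members high in phase 0-60 (45 to 48), low in phase 60-120 (26 to 42) and cycling (37 to 48) stayed within 1.5 times the reported value in total under every alternative run, though the 14 synthetases low in phase 60-120 numbered 7 without phase 0-60 in the comparison and 6 in the even-numbered samples. Members low in phase 0-60 numbered 1 as deposited and 1 after quantile normalization, TEF2 in both, against 0. Members high in phase 60-120 numbered 2 after quantile normalization (TIF4632 and GUS1), 0 in the even-numbered samples and 3 against the 4 windows other than phase 0-60 and 60-120, against 1. As deposited, members low numbered 7 in phase 120-180, 1 in phase 180-240, 2 in phase 240-300 and 0 in phase 300-360, against 34, 4, 9 and 1. Members high in phase 300-360 numbered 0 as deposited and 3 after quantile normalization, against 1. These settings of the later windows were added after seeing the data. Members higher in the late part of the pulse numbered 5 as deposited (51.9% of all tested probe sets) and 1 (GUS1) after quantile normalization (35.6%), against 0. Those lower late numbered 0 as deposited, 13 after quantile normalization, 0 with only the 8 pulse samples and 14 to 48 when each pulse sample was left out in turn, against 25. The median highest-to-lowest ratio, 3.11 for synthetases, 3.49 for initiation factors and 2.67 for elongation and termination factors, was 3.64, 4.16 and 3.16 in single samples, and 2.91 for synthetases and 3.04 for initiation factors as deposited. Counted as in the labels, with phase 0 at 360 degrees, the median peak moved to 400.31 degrees as deposited for synthetases and for elongation and termination factors. Apart from scaling and fewer samples, the cause of these shifts was not tested. Promoters and proteins were not used here. No paired analysis was possible because replicate numbers only name samples in order within a window. Signals cannot be compared between probe sets, and 1 culture gives no spread between cultures.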
